A study of Mus musculus with 15 samples.

Results

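The RNA of 9 genes of the bone morphogenetic protein (BMP) pathway was followed through the development of the mouse stomach. They are 4 ligands (Bmp2, Bmp4, Bmp5 and Bmp7), 3 secreted antagonists (Nog, Grem1 and Chrd) and 2 genes that BMP signalling switches on (Id1 and Id3). They were chosen by name out of the 44788 gene symbols in the files, and each reached an FPKM (mapped fragments scaled to the length of the transcript and the depth of the library) of at least 1 at some timepoint, as 16902 symbols did. Whole stomachs of C57BL/6 mice were sequenced at 15 timepoints, with 1 transcriptome each: daily from E12.5 to E18.5 of gestation, then at 1, 3 and 5 days (D1, D3, D5) and at 1, 2, 3, 6 and 8 weeks (W1 to W8) after birth. The labels name no engineered allele and no treatment, so that age sets the groups. The timepoints fall into the 3 RNA phases of the study, Ph1 (E12.5 to E17.5, 6 transcriptomes), Ph2 (E18.5 to W2, 6 transcriptomes) and Ph3 (W3 to W8, 3 transcriptomes). By the study's methods, samples of E12.5 to E17.5 combined stomachs of several embryos and later ones came from 1 animal, although whether this held for the RNA as well as the protein is not stated. Embryos and pups up to W2 were taken without regard to sex, and older mice were male, so that the step into Ph3 and the change to male animals cannot be told apart.

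BMP ligands are secreted growth factors that bind pairs of type I and type II receptor kinases, which phosphorylate SMAD1, SMAD5 and SMAD9. These join SMAD4, enter the nucleus and activate genes such as the Id genes, whose products hold back differentiation by binding basic helix-loop-helix transcription factors. Antagonists trap the ligands outside the cell, and in the gut BMP signals pass mainly between the mesenchyme and the overlying epithelium.

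RefSeq promoter sequences (GRCm38.p6) were at hand for 5 of the 9 genes, namely Bmp4, Bmp5, Grem1, Chrd and Id3. Those of a ligand that fell in Ph3, a ligand with 1 sharp peak, and a direct SMAD target are shown, as the 250 bases before the annotated start, 5′ to 3′ on the strand of the gene. Capitals mark CAGAC or its reverse complement GTCTG, letters known from SMAD binding elements. The windows are chr14:46390670-46390919 on the minus strand for Bmp4, chr9:75775115-75775364 on the plus strand for Bmp5 and chr4:136143572-136143821 on the plus strand for Id3.
Bmp4: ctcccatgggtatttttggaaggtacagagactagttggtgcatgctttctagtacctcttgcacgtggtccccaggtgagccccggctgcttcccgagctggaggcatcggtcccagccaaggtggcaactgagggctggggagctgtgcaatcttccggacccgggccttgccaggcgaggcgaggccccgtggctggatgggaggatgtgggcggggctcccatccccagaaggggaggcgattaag
Bmp5: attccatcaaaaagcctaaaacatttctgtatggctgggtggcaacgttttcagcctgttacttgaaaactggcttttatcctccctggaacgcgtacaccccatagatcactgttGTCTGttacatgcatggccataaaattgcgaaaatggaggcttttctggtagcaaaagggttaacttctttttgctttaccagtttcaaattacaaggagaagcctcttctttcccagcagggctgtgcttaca
Id3: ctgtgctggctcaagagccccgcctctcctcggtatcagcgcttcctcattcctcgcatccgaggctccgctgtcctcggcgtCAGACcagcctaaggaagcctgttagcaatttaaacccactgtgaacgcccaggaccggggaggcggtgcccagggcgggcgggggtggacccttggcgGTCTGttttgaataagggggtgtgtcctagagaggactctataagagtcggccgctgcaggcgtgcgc
The Id3 window held these letters 2 times, beginning 167 and 68 bases before the start. The Bmp5 window held them 1 time, 134 bases before the start, and the Bmp4 window did not hold them. Of all 32851 promoters of the same length, 42.2% held CAGAC or GTCTG, so a match is a description of the letters only. GGCGCC, a palindrome known as a GC-rich element bound by SMAD1 and SMAD5, stood in 9.59% of all windows and in none of the 3 shown. The Grem1 and Chrd windows are not described, because they lie in part or in whole within the gene spans that the files give. GC content was 63.2% for Bmp4, 62.8% for Id3 and 42.8% for Bmp5.

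Confidence bounds deposited with each FPKM cover counting error within 1 transcriptome and no difference between animals. If the bounds are Poisson, between 10.6 (E16.5) and 17.0 (W6) fragments, in units of 1e6, stood behind the gene entries of a transcriptome, and between 38 (Grem1) and 3799 (Id3) fragments behind a single value of the 9 genes. The phases were compared with limma on log2(FPKM + 1), with Benjamini-Hochberg adjustment over all 16902 genes and a threshold of 0.05. Timepoints stood in for replicates, so the spread within a phase includes change with age, and the phases themselves were drawn by the study from these transcriptomes. On this scale the median difference of all genes was -0.22 from Ph1 to Ph2 and -0.43 from Ph2 to Ph3, while the 10 highest genes of a transcriptome took between 11.2% (E14.5) and 53.2% (W6) of the summed FPKM. The differences of the 9 genes are therefore also given after median-ratio scaling, which sets the typical gene level across the transcriptomes, with factors from 1.27 (E14.5) to 0.577 (W6). Levels at single timepoints are on the deposited scale. After scaling, the highest level moved from W2 to W3 for Bmp2 and from D5 to W1 for Bmp4, and the lowest from W6 to W8 for Bmp4, to E13.5 for Bmp5, to D3 for Bmp7 and to D1 for Grem1.

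Of the 9 genes, 6 differed across the phases (Bmp2, Bmp4, Bmp7, Nog, Chrd and Id1), against a background of 81.5% of all genes. Between Ph1 and Ph2, Bmp2 rose and Bmp7 and Id3 fell. That is 1 gene higher, where 18.9% of all genes were, and 2 genes lower, where 44.2% were. From Ph2 to Ph3, Id1 rose and Bmp4, Bmp7, Nog and Chrd fell, which is 1 gene higher against a background of 5.85% and 4 lower against 52.2%. After median-ratio scaling, 8 of the 9 genes differed across the phases (74.3% of all genes). On that scale Bmp2, Bmp5 and Id1 were higher in Ph2 than in Ph1 (background 28.6%) and Bmp7 was lower (27.1%). In Ph3, Id1 and Id3 stood above Ph2 on that scale (22.9%), and Bmp4, Nog and Chrd below (19.0%).

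**Figure D1:**
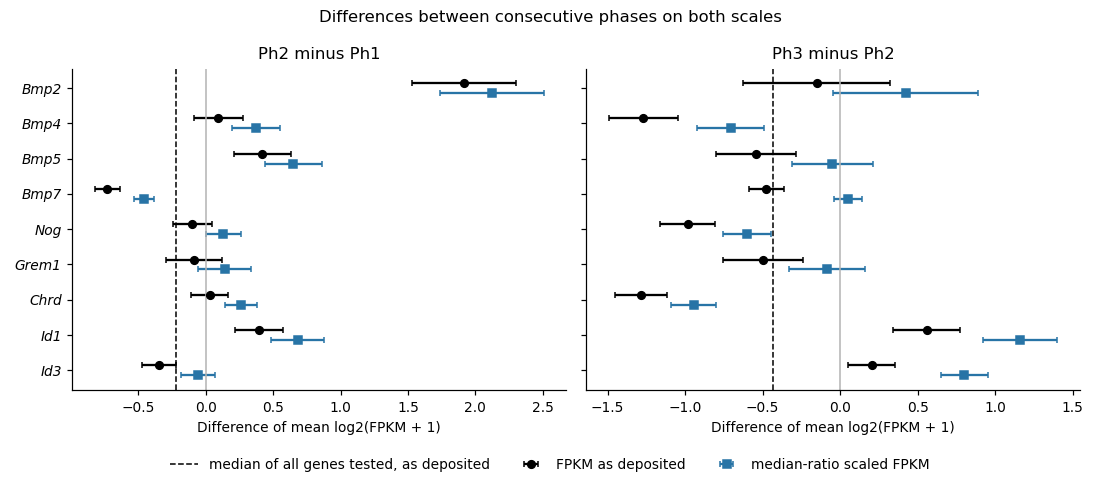
Difference of mean log2(FPKM + 1) between consecutive phases for the 9 genes (points, bars are standard errors), with FPKM as deposited in black and after median-ratio scaling in blue; the dashed line is the median of all genes tested. Bmp2 stands at 1.92 on the left, and on the right Bmp4, Nog and Chrd lie left of 0 on both scales, while Bmp7 moves from -0.48 to 0.05.

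Bmp2, a ligand of the BMP2 and BMP4 pair (chr2:133552159-133562896), was the member with the widest range. Its FPKM was 0.888, 1.88, 2.48, 5.40, 10.9 and 10.8 from E12.5 to E17.5. It was 18.3 at E18.5, 13.6 at D1, 19.1 at D3, 16.7 at D5, 19.4 at W1 and 23.0 at W2. At W3, W6 and W8 it was 19.6, 14.4 and 15.2. The Bmp2 level thus climbed through Ph1, 12.3-fold from its lowest to its highest value there, and every Ph2 value lay above every Ph1 value. The log2 level of Bmp2 rose from Ph1 to Ph2 by 1.92 ± 0.39 (SE, adjusted p = 0.000809), or 2.12 after median-ratio scaling. An exact two-sided permutation test on the deposited scale gave p = 0.00216, the smallest that 924 splits allow. Every Ph2 value exceeded every Ph1 value for 7.79% of all genes. The log2 difference of Bmp2 from Ph2 to Ph3 was -0.15 ± 0.47 (adjusted p = 0.801), and 0.42 after median-ratio scaling, so that its direction depends on the scale. In the order of its 15 levels, neighbours were set apart by their bounds at 5 of 14 places, among them E12.5 below E13.5, E14.5 below E15.5, and W3 below W2.

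Bmp4, the partner of Bmp2 in that pair and a mesenchymal signal in the gut (chr14:46383520-46390599), had the highest FPKM of the 4 ligands at 13 of the 15 timepoints. Bmp2 was higher at W6 and W8, and at W3 the bounds of the pair overlapped. Its FPKM was 23.7, 31.1, 34.9, 34.7, 33.2 and 28.1 from E12.5 to E17.5. It was 25.8 at E18.5, 22.9 at D1, 32.6 at D3, 42.5 at D5, 39.6 at W1 and 37.9 at W2. At W3, W6 and W8 it was 20.01, 10.3 and 10.54. Ph1 and Ph2 overlapped, with a log2 difference of 0.09 ± 0.18 (adjusted p = 0.673), or 0.37 after median-ratio scaling (adjusted p = 0.0850). On the deposited scale every Ph3 value of Bmp4 lay below every Ph2 value, as was so for 44.7% of all genes. From Ph2 to Ph3 Bmp4 fell by 1.27 ± 0.22 on the log2 scale (adjusted p = 0.000473). The exact permutation test of 6 against 3 timepoints on the deposited scale gave p = 0.0119, the smallest that 84 splits allow. After median-ratio scaling the log2 difference of Bmp4 was -0.71 (adjusted p = 0.0175), and W3 (26.2) lay above E18.5 (23.5) and D1 (22.6). In whole stomach RNA, fewer cells that make a transcript and less transcript per cell cannot be told apart.

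Bmp5, a ligand of the BMP5 to BMP8 subgroup (chr9:75775365-75899017), had a single peak. Its FPKM was 4.85, 3.66, 4.13, 5.07, 4.48 and 3.71 from E12.5 to E17.5. It was 5.67 at E18.5, 3.51 at D1, 5.38 at D3, 6.20 at D5, 5.17 at W1 and 13.7 at W2. At W3, W6 and W8 it was 4.80, 3.23 and 3.64. The W2 level, with bounds of 12.6 and 14.7, was 2.64-fold that at W1 and stood above all other timepoints, which is also the only place in the order of the 15 Bmp5 levels where the bounds of neighbours did not overlap. Between the phases, the log2 differences of Bmp5 were 0.42 ± 0.21 (adjusted p = 0.0957) and -0.54 ± 0.26 (adjusted p = 0.0826), and neither passed the threshold. After median-ratio scaling the first was 0.65 (adjusted p = 0.0185) and the second -0.05 (adjusted p = 0.890). Without W2 they were 0.21 (adjusted p = 0.179) and -0.33 (adjusted p = 0.0808).

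Bmp7, a ligand of the same subgroup as Bmp5 that is made by epithelia in many organs (chr2:172868012-172940321), fell shortly before birth. Its FPKM was 14.48, 16.8, 15.2, 13.8, 14.6 and 14.04 from E12.5 to E17.5. It was 8.78 at E18.5, 8.89 at D1, 7.54 at D3, 10.3 at D5, 7.19 at W1 and 8.81 at W2. At W3, W6 and W8 it was 6.74, 5.03 and 5.90. The 3 phases did not overlap on the deposited scale. After median-ratio scaling the Ph3 values (8.71 to 8.83) lay within the Ph2 range (7.36 to 9.79). Between E17.5 and E18.5 alone the deposited level went to 0.6254 of its former value, with bounds that did not meet. Over the phases, Bmp7 fell from Ph1 to Ph2 by 0.73 ± 0.09 on the log2 scale (adjusted p = 7.2e-05), and the exact permutation test gave p = 0.00216. Of all genes, 21.9% lay wholly below their Ph1 range in Ph2. From Ph2 to Ph3 Bmp7 fell by 0.48 ± 0.11 on the log2 scale with FPKM as deposited (adjusted p = 0.00307), while after median-ratio scaling that difference was 0.05 (adjusted p = 0.675). The Ph1 to Ph2 difference of Bmp7 was -0.46 after scaling (adjusted p = 0.000309), so only the earlier fall held on both scales.

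**Figure D2:**
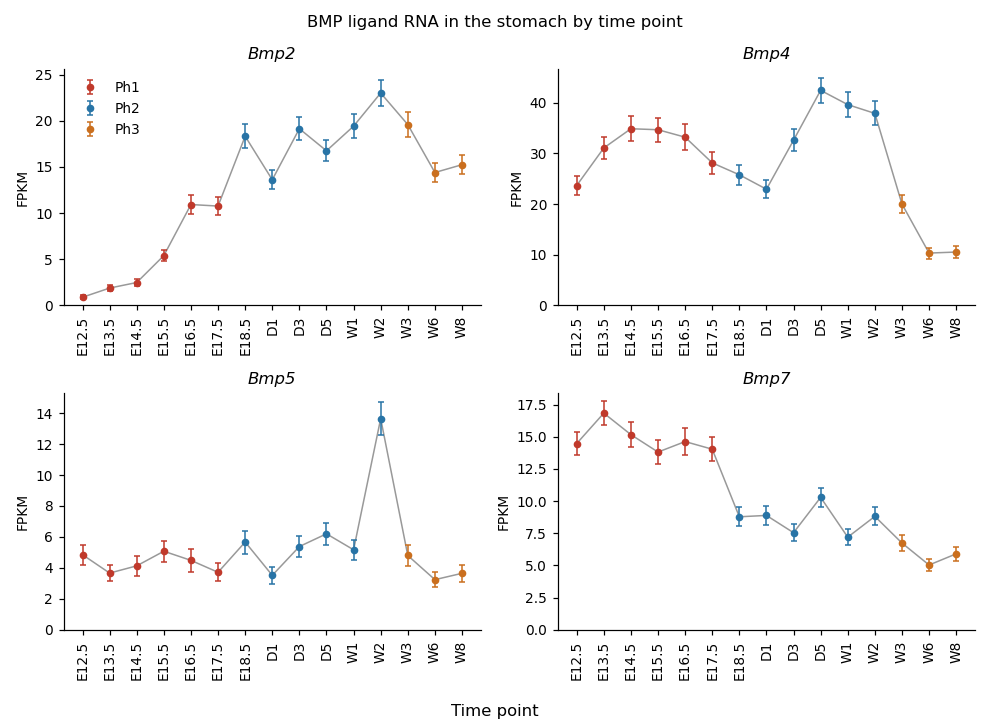
FPKM of the 4 ligands at the 15 timepoints (points coloured by RNA phase, bars are the confidence bounds deposited with each value). Bmp2 climbs from 0.888 at E12.5 to 23.0 at W2, Bmp4 falls to 10.3 at W6, Bmp5 peaks at 13.7 at W2, and Bmp7 lies between 13.8 and 16.8 in Ph1 and at or below 10.3 from E18.5 on.

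FPKM is a level per transcript length, so the ligands can be set against each other within a transcriptome, and such shares do not depend on its scale. Bmp2 made up 2.02% of the summed FPKM of the 4 ligands at E12.5 and 43.6% at W6. Its mean share was 9.22% ± 7.32 in Ph1 (SD, n = 6), 27.6% ± 3.09 in Ph2 (n = 6) and 41.7% ± 2.95 in Ph3 (n = 3), with no overlap between the phases. The share of Bmp4 was 55.8% ± 4.46, 49.7% ± 5.16 and 33.4% ± 4.998 in the same order, and its Ph3 values, 29.8% to 39.1%, lay below all others. The share of Bmp7 was 27.1% ± 4.21 in Ph1, 13.2% ± 3.06 in Ph2 and 15.0% ± 1.77 in Ph3, so that Ph1 stood above both later phases. Bmp5 held 7.90% ± 1.70, 9.50% ± 3.49 and 9.83% ± 0.469, with a highest share of 16.4% at W2. The FPKM of Bmp2 was 0.0375 of that of Bmp4 at E12.5, 0.710 at E18.5, 0.978 at W3 and 1.45 at W8. No test was run on these shares.

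**Figure D3:**
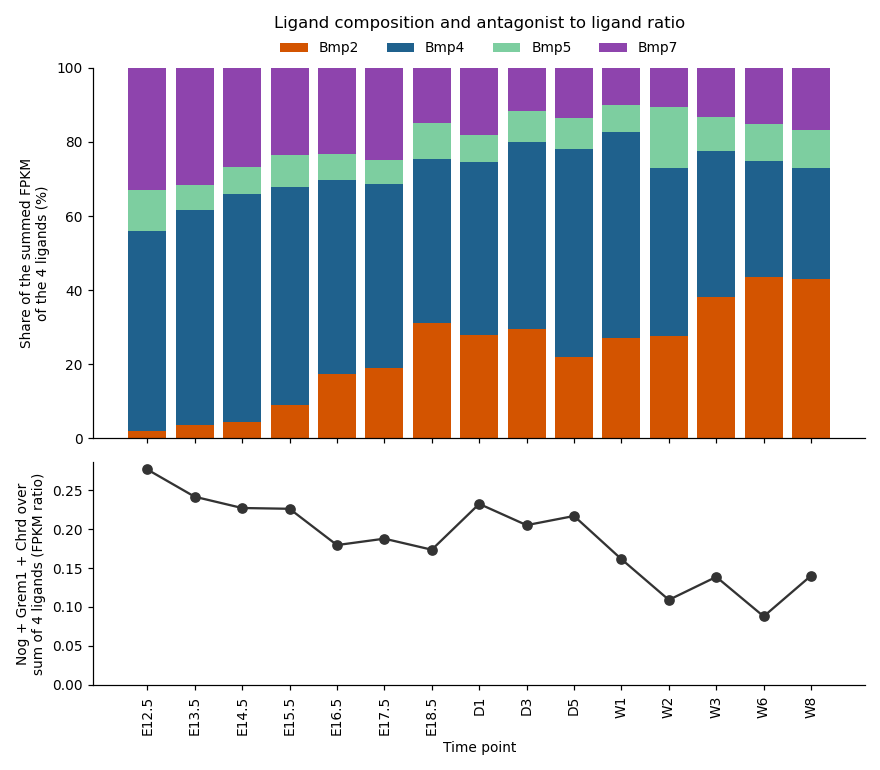
Upper panel, share of each ligand in the summed FPKM of Bmp2, Bmp4, Bmp5 and Bmp7 at each timepoint (stacked bars, percent); lower panel, ratio of the summed FPKM of Nog, Grem1 and Chrd to that sum. The Bmp2 share widens from 2.02% at E12.5 to 43.6% at W6, and the ratio is highest at E12.5 (0.277) and lowest at W6 (0.0878).

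Nog encodes noggin, which binds BMP ligands and blocks their contact with receptors. Its files hold 2 entries, on chromosome 11 (chr11:89300638-89302559) and on a scaffold, which were summed. The scaffold took between 9.84% and 22.7% of the sum, and reads may be split between the entries. The FPKM of Nog was 4.11, 4.10, 4.67, 4.57, 4.14 and 4.59 from E12.5 to E17.5. It was 3.97 at E18.5, 4.28 at D1, 3.91 at D3, 6.20 at D5, 3.84 at W1 and 2.48 at W2, and at W3, W6 and W8 it was 2.097, 1.03 and 1.57. Nog was thus level through Ph1, highest at D5 and lowest in Ph3. Its deposited levels in Ph3 were under those of all other timepoints. Of all genes, 44.7% likewise lay wholly below their Ph2 range in Ph3. After median-ratio scaling the Nog ranges of Ph2 and Ph3 overlapped, with W3 (2.75) above W2 (2.59). From Ph2 to Ph3 Nog fell by 0.98 ± 0.18 on the log2 scale (adjusted p = 0.000513), or by 0.60 after median-ratio scaling (adjusted p = 0.00750). The exact permutation test on the deposited scale gave p = 0.0119. The log2 difference from Ph1 to Ph2 was -0.10 ± 0.14 (adjusted p = 0.556), and 0.13 after scaling.

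Chrd encodes chordin, a large secreted protein that holds BMP ligands until proteases of the tolloid group cut it (chr16:20731576-20742384). Its FPKM was 4.41, 5.09, 4.16, 4.18, 3.64 and 3.55 from E12.5 to E17.5. It was 3.81 at E18.5, 5.39 at D1, 4.97 at D3, 4.86 at D5, 4.04 at W1 and 2.87 at W2, and at W3, W6 and W8 it was 1.70, 0.742 and 1.13. Chrd was highest at D1 and came down from W1 to W2 to W3 to W6. It lay wholly below its Ph2 range in Ph3, as did 44.7% of all genes. It fell by 1.29 ± 0.17 on the log2 scale (adjusted p = 9.8e-05), or by 0.94 after median-ratio scaling (adjusted p = 0.000312), the widest fall of the 9 genes at this step on both scales, although that of Bmp4 on the deposited scale lay within a standard error of it. The log2 difference of Chrd from Ph1 to Ph2 was 0.03 ± 0.14 (adjusted p = 0.861), or 0.26 after scaling (adjusted p = 0.0781).

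Grem1 encodes gremlin 1, an antagonist known from the mesenchyme below the epithelium of the gut (chr2:113748674-113758786). Its FPKM was 3.63, 3.74, 4.04, 4.59, 3.58 and 2.50 from E12.5 to E17.5. It was 2.39 at E18.5, 1.72 at D1, 4.39 at D3, 5.36 at D5, 3.65 at W1 and 3.74 at W2, and at W3, W6 and W8 it was 3.29, 1.12 and 2.26. Grem1 thus dipped around birth, was highest at D5 and lowest at W6, and all 3 phases overlapped. Its log2 differences, -0.09 ± 0.21 (adjusted p = 0.734) and -0.50 ± 0.26 (adjusted p = 0.107), did not pass the threshold. After median-ratio scaling they were 0.14 and -0.08 (adjusted p = 0.565 and 0.799).

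Summed, the 3 antagonists stood at 0.223 ± 0.0358 of the FPKM of the 4 ligands in Ph1 (SD, n = 6), at 0.183 ± 0.0450 in Ph2 (n = 6) and at 0.122 ± 0.0298 in Ph3 (n = 3). The ratio of antagonists to ligands was highest at E12.5 (0.277) and lowest at W6 (0.0878), and the W2 value of 0.109 lay within the Ph3 range.

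**Figure D4:**
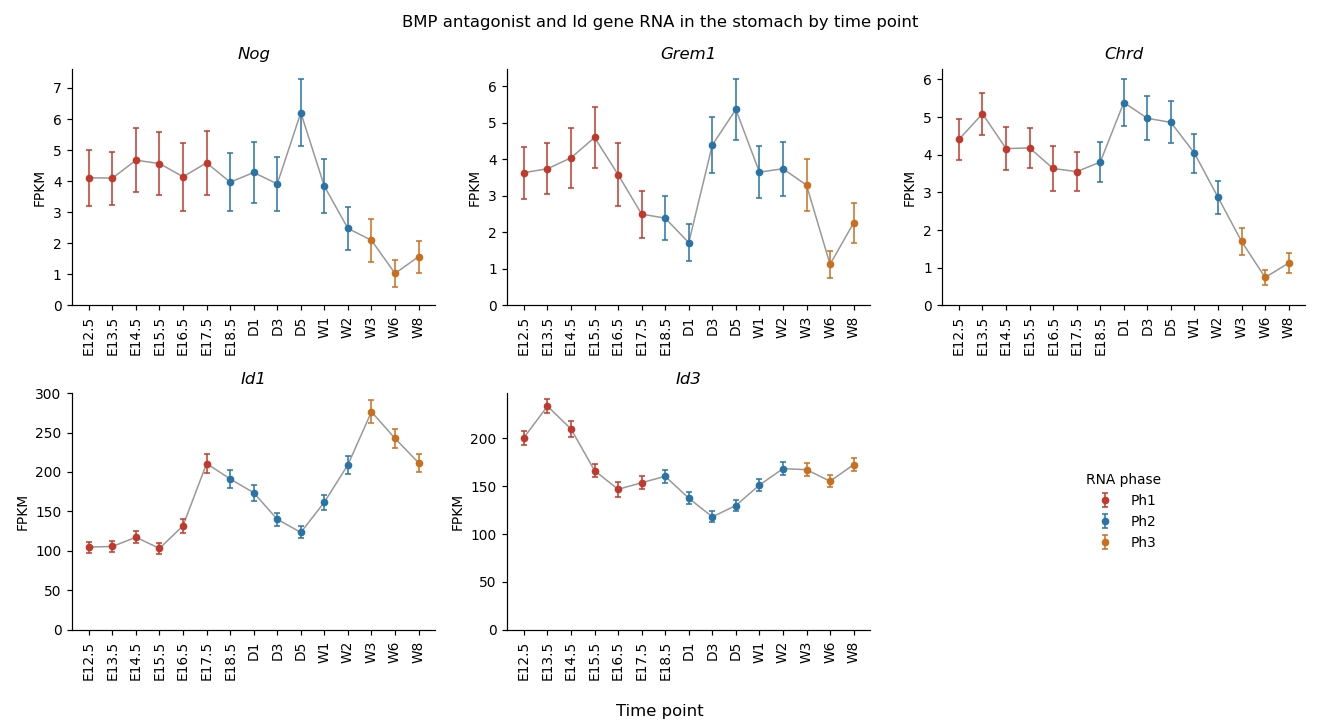
FPKM of the antagonists Nog, Grem1 and Chrd and of the target genes Id1 and Id3 at the 15 timepoints (points coloured by RNA phase, bars are the deposited confidence bounds). Nog and Chrd lie lowest in Ph3, Grem1 dips to 1.72 at D1, Id1 peaks at 276.4 at W3, and Id3 is highest at E13.5 with 233.6.

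Id1 and Id3 encode inhibitors of DNA binding and are direct targets of the BMP SMADs, although other signals also act on them. Id1 (chr2:152736239-152737410) had an FPKM of 104.7, 105.5, 117.2, 103.1, 131.9 and 210.7 from E12.5 to E17.5. It was 191.2 at E18.5, 173.7 at D1, 140.0 at D3, 123.3 at D5, 161.7 at W1 and 209.1 at W2, and at W3, W6 and W8 it was 276.4, 242.6 and 211.7. Id1 thus had a first maximum at E17.5 and a second at W3 with a trough at D5 between them on the deposited scale, while after median-ratio scaling it went on from 362.1 at W3 to 420.2 at W6. On the deposited scale every Ph3 value lay above every Ph2 value, as was so for 4.63% of all genes. The lowest Ph3 value, 211.7 at W8 (bounds 200.6 to 222.7), lay close to the highest Ph2 value, 209.1 at W2 (197.8 to 220.4), and their bounds overlapped. From Ph2 to Ph3 Id1 rose by 1.16 after median-ratio scaling (adjusted p = 0.00188). With FPKM as deposited it rose by 0.56 ± 0.22 on the log2 scale (adjusted p = 0.0380), and the exact permutation test gave p = 0.0238. This rise on the deposited scale did not pass the threshold without D3, D5, W1, W3 or W6, with adjusted p-values from 0.0543 to 0.131. From Ph1 to Ph2 the log2 difference of Id1 was 0.39 ± 0.18 (adjusted p = 0.0635). After scaling it was 0.68 (adjusted p = 0.00928), and on the deposited scale without E17.5 it was 0.55 (adjusted p = 0.00289).

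Id3 (chr4:136143822-136145392) had an FPKM of 200.8, 233.6, 209.9, 166.3, 146.7 and 153.6 from E12.5 to E17.5. It was 160.3 at E18.5, 137.4 at D1, 117.9 at D3, 129.8 at D5, 151.2 at W1 and 168.3 at W2, and at W3, W6 and W8 it was 167.3, 155.2 and 172.5. On the deposited scale Id3 was highest from E12.5 to E14.5 and lowest at D3, a range of 1.98-fold. After median-ratio scaling its highest levels were 268.8 at W6, 257.0 at W8 and 219.2 at W3, beside 158.7 to 184.3 from E12.5 to E14.5, and D3 stayed lowest. Id3 fell from Ph1 to Ph2 by 0.35 ± 0.13 on the log2 scale (adjusted p = 0.0253), but after median-ratio scaling the difference was -0.06 (adjusted p = 0.710), and without E12.5, E13.5, E14.5, D3 or D5 the call was also lost. From Ph2 to Ph3 its log2 difference was 0.20 ± 0.15 (adjusted p = 0.268), and 0.80 after scaling (adjusted p = 0.00118). The ratio of the FPKM of Id1 to that of Id3 was 0.452 at E13.5, 1.37 at E17.5, 0.950 at D5 and 1.65 at W3, so that Id1 had the lower level through E16.5 and at D5 and the higher level at the other timepoints.

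Between neighbouring timepoints, the bounds of the 9 genes lay apart in 59 of 126 steps, against 32.7% of such steps over all genes tested. Id3 and Bmp2 had 10 such steps of 14 each, Id1 had 9, and Nog had 2. Bounds of counting error are narrower, relative to the level, where more fragments were counted, so these numbers also depend on the fragments of a gene. If the bounds are Poisson, Id3 had 1478 to 3799 fragments and a 1.98-fold range, and Nog had 39 to 227 and a 6.02-fold range. The part of fragment number in the difference from all genes was not tested. The bounds of Nog are those of its 2 entries added, which widens them, and its entry on chromosome 11 alone also lay apart from W3 (1.27 to 2.22) to W6 (0.574 to 1.17). From W3 to W6, 7 of the 9 genes were lower and none was higher, while 45.7% of all genes were lower and 2.67% higher. Bmp4 at W6 stood at 0.516 of its W3 level, Chrd at 0.436 and Grem1 at 0.341. The median-ratio factor itself went from 0.763 at W3 to 0.577 at W6. After that scaling, Bmp4 (26.2 to 17.9), Chrd (2.23 to 1.29), Grem1 (4.31 to 1.94), Nog (2.75 to 1.78) and Bmp5 (6.29 to 5.60) were lower at W6. Bmp2 (25.7 to 24.9) and Bmp7 (8.83 to 8.71) were nearly level, and Id1 (362.1 to 420.2) and Id3 (219.2 to 268.8) were higher. From W1 to W2, 5 of the 9 genes were higher (Bmp2, Bmp5, Bmp7, Id1 and Id3) and Chrd was lower, while 19.1% of all genes were higher and 12.9% lower.

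The rest of the pathway was followed as a list of 50 further genes, of which 43 reached an FPKM of 1. The other 7 (Bmp8a, Bmp8b, Bmp10, Gdf2, Gdf7, Sost and Cer1) stayed below it at every timepoint. Of the 43 genes, 40 differed across the phases on the deposited scale (81.5% of all genes) and 31 after median-ratio scaling (74.3%). At the first step 6 were higher (18.9% of all genes) and 19 lower (44.2%), with a median log2 difference of -0.27 beside -0.22 for all genes tested. At the second step 2 were higher (5.85%) and 27 lower (52.2%), with a median of -0.57 beside -0.43. After median-ratio scaling, 11 were higher (28.6%) and 8 lower (27.1%) at the first step, and 5 were higher (22.9%) and 14 lower (19.0%) at the second, with medians of -0.0097 and -0.19. Among the 9 genes described above, the median log2 differences were 0.03 and -0.50 on the deposited scale and 0.26 and -0.05 after scaling.

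By role, the receptors had 0 genes higher and 5 of 7 lower at each step on the deposited scale, where 44.2% and 52.2% of all genes were lower, and 2 of 7 lower at each step after median-ratio scaling (27.1% and 19.0% of all genes). Acvr2b, a type II receptor, fell by 1.33 ± 0.23 on the log2 scale from Ph1 to Ph2 (adjusted p = 0.000306), and Acvrl1, a type I receptor of endothelial cells, fell by 1.13 ± 0.24 from Ph2 to Ph3 (adjusted p = 0.00140). Of the SMAD signal transducers, 3 of 4 fell at each step on the deposited scale (44.2% and 52.2% of all genes). After scaling, 2 of 4 fell at each step (27.1% and 19.0%). Smad5 fell by 0.90 ± 0.17 and then by 1.22 ± 0.21 on the log2 scale (adjusted p = 0.000491 and 0.000361). The coreceptor Rgma fell by 0.74 ± 0.19 and then by 1.37 ± 0.23 (adjusted p = 0.00381 and 0.000389). The falls of Acvr2b, Acvrl1, Smad5 and Rgma kept their direction and an adjusted p under 0.05 after median-ratio scaling.

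Of the 10 other antagonists tested, 2 rose (18.9% of all genes) and 1 fell (44.2%) from Ph1 to Ph2. From Ph2 to Ph3, 1 rose (5.85%) and 6 fell (52.2%). After median-ratio scaling, 3 rose (28.6%) and 1 fell (27.1%), and then 1 rose (22.9%) and 2 fell (19.0%). Fst, which encodes the activin and BMP binding protein follistatin, fell by 1.74 ± 0.30 and then by 1.47 ± 0.37 on the log2 scale (adjusted p = 0.000278 and 0.00379). Among the enzymes that act on the ligands or on chordin, Furin, a protease that cuts BMP precursors, rose by 1.01 ± 0.27 from Ph1 to Ph2 (adjusted p = 0.00450) and by 2.098 ± 0.33 on the log2 scale from Ph2 to Ph3 (adjusted p = 0.000241). Bmp1, which despite its name encodes a tolloid-type protease that cuts chordin, fell by 2.16 ± 0.29 from Ph2 to Ph3 (adjusted p = 0.000115), the step at which Chrd fell. Fst, Furin and Bmp1 kept these calls after median-ratio scaling.

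Of the 4 other ligands tested, 1 rose (18.9% of all genes) and 1 fell (44.2%) from Ph1 to Ph2. From Ph2 to Ph3, 2 fell (52.2%). After median-ratio scaling 3 rose and none fell at the first step (28.6% and 27.1% of all genes), and 2 fell at the second (19.0%). Gdf6 fell by 0.72 ± 0.29 on the log2 scale from Ph1 to Ph2 (adjusted p = 0.0418, and 0.0790 after median-ratio scaling). Bmp6 fell by 1.06 ± 0.16 from Ph2 to Ph3 (adjusted p = 0.000216), at the step where Bmp4 fell. Bambi, a pseudoreceptor that blocks BMP signals at the membrane, fell by 0.60 ± 0.17 and then by 1.33 ± 0.21 (adjusted p = 0.00708 and 0.000264, with the first at 0.0524 after scaling). Of the 5 other target genes, 3 fell at each step and none rose on the deposited scale, where 44.2% and 52.2% of all genes fell. After median-ratio scaling 1 fell at the first step (27.1% of all genes). At the second, 1 rose (22.9%) and 2 fell (19.0%), the rise being that of Id2 (0.39, adjusted p = 0.0211), named here after its values were seen. Msx1, a homeobox gene, fell by 0.49 ± 0.16 from Ph1 to Ph2 (adjusted p = 0.0133), and Id4, a relative of Id1 and Id3, fell by 1.29 ± 0.24 from Ph2 to Ph3 (adjusted p = 0.000562), where the log2 difference of Id1 was positive.

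**Figure D5:**
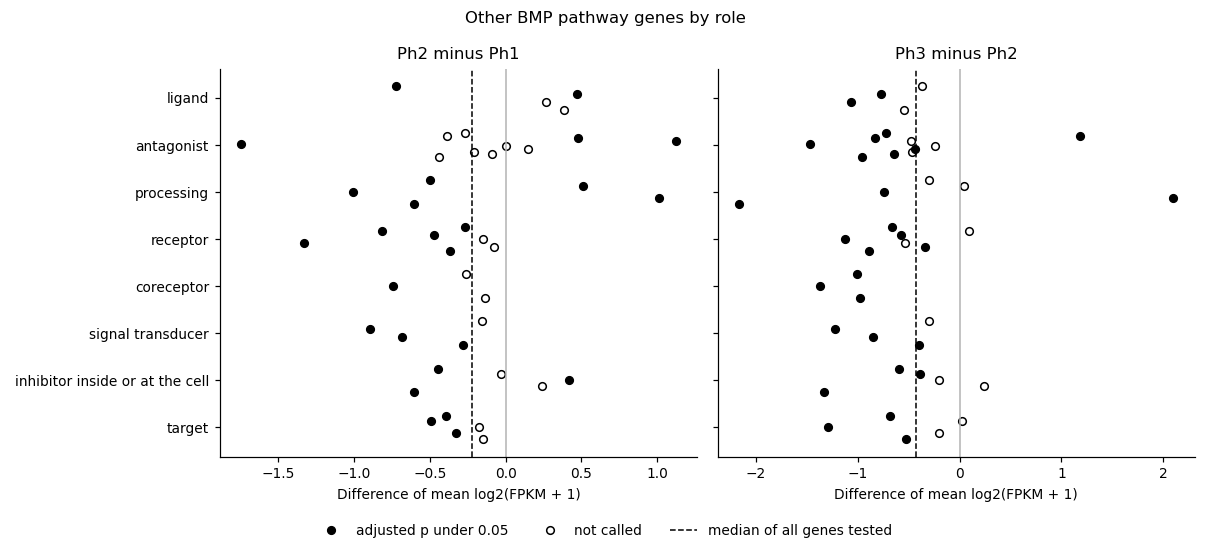
Difference of mean log2(FPKM + 1) between consecutive phases for the 43 other BMP pathway genes tested, grouped by role on the vertical axis (filled points have an adjusted p under 0.05; the dashed line is the median of all genes). No receptor or signal transducer has a filled point right of 0 in either panel on this scale, and the filled point farthest left in the right panel is Bmp1 at -2.16.

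Markers of the cell types a stomach holds moved with the phases, in 4 lists of 6 genes each. From Ph1 to Ph2, the step at which Bmp2 rose and Bmp7 fell, 6 smooth muscle markers rose, 4 epithelial markers rose and 1 fell, 4 endothelial markers fell and 1 mesenchyme marker fell, where 18.9% of all genes rose and 44.2% fell. After median-ratio scaling the smooth muscle and mesenchyme counts were the same, 5 epithelial markers rose and 1 fell, and 2 endothelial markers fell. From Ph2 to Ph3, 6 mesenchyme, 5 endothelial, 2 smooth muscle and 2 epithelial markers fell, where 52.2% of all genes fell. After scaling, 4 mesenchyme, 5 endothelial and 1 epithelial marker fell and 2 epithelial markers rose, where 19.0% of all genes fell and 22.9% rose. The summed FPKM of the mesenchyme markers was between 1564 and 3859 in Ph2 and between 262 and 1366 in Ph3, and that of the endothelial markers between 58.5 and 96.5 and between 22.2 and 39.4. The epithelial sums were 1988 to 3921 in Ph2 and 3950 to 5688 in Ph3, and the smooth muscle sums 4278 to 10483 and 2083 to 7771. The fall of Bmp4, Nog and Chrd in Ph3 thus came with lower mesenchyme and endothelium markers, and the rise of Bmp2 with higher smooth muscle and epithelial ones, and the part of these markers in the results was not tested. The sums of 6 stomach markers were 341 to 522 in Ph1, 833 to 3761 in Ph2 and 5876 to 9488 in Ph3, and no marker of any list was at 0 at any timepoint.

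Of 6 liver markers, 3 were highest at D1, with an FPKM of 460.5 for Alb, 185.9 for Afp and 19.7 for Serpina1a, where the highest values elsewhere were 65.4 (W3), 22.3 (D3) and 4.25 (W3). The other 3, Apoa1, Apob and Ttr, were highest at W6, W6 and W3, and the summed FPKM of the list was between 249 (E18.5) and 1172 (D1) in Ph2 and between 1470 and 2399 in Ph3. At D1, Bmp4, Bmp5, Bmp2 and Grem1 had their lowest Ph2 levels and Chrd its highest. Without D1, Bmp5 rose from Ph1 to Ph2 by 0.55 on the log2 scale (adjusted p = 0.0279) and fell by 0.67 from Ph2 to Ph3 (adjusted p = 0.0284), and Grem1 fell by 0.63 from Ph2 to Ph3 (adjusted p = 0.0318). The counts of members then became 2 higher and 2 lower from Ph1 to Ph2, and 1 higher and 6 lower from Ph2 to Ph3. Of all 16902 genes without D1, 3037 were higher and 7247 lower at the first step, and 878 higher and 8490 lower at the second. The part of the liver transcripts in these differences was not tested.

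For each of the 9 genes, the genes with the most similar course were sought by Pearson correlation of log2(FPKM + 1) over the 15 timepoints among 12439 genes with an FPKM of at least 5 at some timepoint. These timepoints share a scale and a trend with age, so the values are descriptions. Closest to Bmp2 were Rab3d (r = 0.989), which encodes a GTPase of secretory vesicles, and Paqr5 (r = 0.988), and both had their lowest level at E12.5 and their highest at W2, as Bmp2 did. Closest to Bmp4 were Slc29a1 (r = 0.962), a nucleoside transporter, and Cd97 (r = 0.955), both highest at D5. Closest to Bmp7 were B4galt5 (r = 0.983) and Tomm34 (r = 0.982), both lowest at W6. Bmp5 had less close courses, LOC102639084 (r = 0.848, Spearman's rho = 0.433) and Nedd9 (r = 0.798), and both were highest at W2, as Bmp5 was.

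Closest to Nog were Fnbp1 (r = 0.974) and Sox17 (r = 0.970), an endoderm and endothelium transcription factor, both highest at D5 as Nog was. Closest to Chrd were Csdc2 (r = 0.984) and Mical1 (r = 0.977), both lowest at W6 as Chrd was. Grem1 had Arhgef26 (r = 0.906) and Slc17a5 (r = 0.839) as its closest. Closest to Id1 were Gstm6 (r = 0.969) and Cox8a (r = 0.959), a subunit of cytochrome c oxidase, both highest at W3 as Id1 was. Closest to Id3 were Tbc1d13 (r = 0.893) and Kalrn (r = 0.853), both highest at E12.5.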

How the data were processed

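RNA of whole stomachs was sequenced at 15 timepoints. The authors deposited 1 table of FPKM values with confidence bounds for each timepoint. The study's methods name HISAT2, StringTie and a GENCODE annotation, and the submitters' processing notes name GRCm38.p2, Bowtie 0.12.2 and FastQC. The columns are those of Cufflinks tables and the identifiers resemble RefSeq, which differs from these accounts, and how multi-mapped reads were treated is not given in the sources used here. As the RNA source the methods name liver, whereas the labels say stomach, as does the remainder of the study.

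Entries with the same symbol were summed. Symbols that reached an FPKM of 1 were tested on log2(FPKM + 1), which understates changes of low genes, by the moderated F test and contrasts of limma 3.58.1 (R 4.3.3, Benjamini-Hochberg adjustment over all tested). Exact two-sided permutation tests on the deposited scale went through every split of the timepoints with NumPy 2.4.6, and pandas 2.3.3 was used for tables. The test was tried on simulated data with known differences. The alternatives were other pseudocounts, FPKM limits, normalizations, phase assignments and tests, and leaving out each timepoint.

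The 9 genes, the pathway list and the marker lists were chosen with earlier results of these data known. Of the other pathway genes, those with the largest called difference per role and step are named, and for each of the 9 genes the 2 with the highest correlation.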

Additional observations from a re-analysis of the deposited data

Results flagged for a closer look

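In groups of 6 timepoints, a highest or lowest value was singled out when its gap to the nearest other value exceeded the critical share of the range (Dixon's test). Of 34 groups checked, 3 had such a value, and chance flags about 1 in 20 groups. Bmp5 at W2 stood at an FPKM of 13.7 within Ph2, where the next highest was 6.20 at D5. Its share among the 4 ligands at W2 was therefore also apart, with 16.4% against 9.68% at E18.5. Id1 at E17.5 stood at an FPKM of 210.7 within Ph1, where the next highest was 131.9 at E16.5. Since levels change with age within a phase, a value at the edge of a phase, as E17.5 and W2 are, can lie apart from the others of that phase. No second transcriptome of either timepoint was analysed here.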

How the results depend on the processing

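No paired analysis was possible because each timepoint has 1 transcriptome and replicate numbers only name timepoints within a phase. The number of members higher in Ph2 than in Ph1 was 1, and became 3 with median-ratio scaling or quantile normalization, and 2 with a fixed sum without the 10 highest genes or with the protein phases. The number lower, 2, became 1 with each of these 3 scalings and at a threshold of 0.01. The number higher in Ph3 than in Ph2, 1, became 2 with median-ratio scaling and 0 without a filter on low FPKM or at a threshold of 0.01. Leaving out 1 timepoint at a time gave 6 to 8 members across the phases, 1 to 2 higher and 1 to 2 lower in Ph2, and 0 to 1 higher and 4 to 6 lower in Ph3. The log2 differences that changed sign were not called on the deposited scale, except that of Bmp7 from Ph2 to Ph3, which was 0.051 with median-ratio scaling and 0.094 with quantile normalization. At the same step Bmp2 changed to 0.42 and 0.26 under these scalings, and with quantile normalization Bmp5 changed to 0.075 and Grem1 to 0.10. From Ph1 to Ph2, median-ratio scaling turned Nog to 0.13 and Grem1 to 0.14. With 1 timepoint left out, Nog lay between -0.21 and 0.0047 (without W2), Grem1 between -0.19 and 0.052 (without D1) and Chrd between -0.028 (without D1) and 0.12, with a negative sign also without E16.5, E17.5, D3 or D5. With the protein phases Chrd stood at -0.036. The Id1 difference from Ph1 to Ph2 passed the threshold with all 3 scalings, with the protein phases and without E17.5 or D5. Of 468 results for single genes over the alternatives, 425 kept their direction and their side of the threshold, 14 lost and 13 gained a call, and 16 changed sign. Ph3 rests on 3 timepoints, and as few as 38 fragments stand behind the lowest value of Grem1. What size of change could be detected was not measured.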
